A study of Mus musculus with 12 samples.

Results

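The genes described here encode subunits of the 3 nuclear RNA polymerases and of Mediator. They were chosen by symbol alone, as the protein-coding genes of GENCODE M21 on chromosomes 1 to 19 whose names begin with Polr1, Polr2 or Polr3 and a letter, or with Med and a number. The rule uses no measured value, although it was set with earlier results of these data known. The rule found 56 of 20807 autosomal protein-coding genes, made up of 5 Pol I genes, 13 Pol II genes, 10 Pol III genes and 28 Mediator genes. Some subunits fall outside the rule by name or chromosome, and Med12 and Med14, which lie on the X chromosome, are given only for contrast.

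RNA polymerase I transcribes the large ribosomal RNA precursor, RNA polymerase II transcribes messenger RNAs and many non-coding RNAs, and RNA polymerase III transcribes transfer RNAs, 5S ribosomal RNA and other short RNAs. Mediator is a large complex, built of head, middle and tail modules and a detachable kinase module, that carries signals from DNA-bound transcription factors to RNA polymerase II. Yin Yang 1 (YY1) is a widely expressed zinc finger protein that binds promoters and enhancers and also takes part in placing Xist RNA on the inactive X chromosome. These genes are used in nearly every cell, blood progenitors included, and most have CpG-rich promoters of the kind at which YY1 is often found.

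The study measured YY1 occupancy by ChIP-seq in lineage-negative (Lin-) bone marrow cells, which are left after antibody depletion of mature blood cells, so that YY1 sites could be compared between cells with and without Xist. There were 2 WT and 2 XistΔ/Δ YY1 libraries, all from 3-month-old female mice of the strain 129Sv4/Jae x B6. In XistΔ/Δ mice the floxed Xist alleles were deleted by Vav-iCre, a Cre driven by Vav1 sequences in blood cells, while the presence of the transgene in WT animals is not given in the labels. The series holds 12 samples, and its 8 histone mark samples were not analysed here. Neither pooling of animals nor separate litters are stated for the libraries, so the spread between replicates may be partly technical. The libraries came from bulk cells, in which a peak in fewer cells and a weaker peak in all cells cannot be told apart.

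The 4 peak lists held 9553 (WT 1), 15933 (WT 2), 10075 (XistΔ/Δ 1) and 18113 (XistΔ/Δ 2) peaks. The replicate 2 libraries had 50.0 M and 59.5 M sequence tags and the replicate 1 libraries had 24.9 M and 23.1 M, so depth separated the replicate numbers more than the genotypes. The lists carry positions and no peak height, and width was therefore taken as the graded measure. The order of peaks in the list served as an alternative. For each gene the widest peak within 3 kb of any transcription start site (TSS) was given a percentile among the 14168 regions called in at least 2 of the 4 libraries, where 0 means no peak. The commonest width, 501 bp, stood at percentile 42.1 (WT 1), 7.99 (WT 2), 40.6 (XistΔ/Δ 1) and 5.47 (XistΔ/Δ 2), so low percentiles compare only within a replicate number. As a check of the cells, 5 of 8 stem and progenitor genes had a peak in all 4 libraries, none of 6 genes of depleted lineages did, and none of 5 genes of other tissues had a peak in any library.

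Short stretches of member promoters that hold the YY1 motif are shown because they place the letters YY1 is known to favour against the TSS of these genes. RefSeq promoters of build GRCm38.p6, from 250 bases before to 50 bases after the start, were matched by symbol for 46 of the 56 members, some with more than 1 start, giving 52 promoters. Members with no matched promoter entry included Med8, Med23, Med24, Med30, Polr2d, Polr2g, Polr2k, Polr3a and Polr3d. The windows below have 30 bases each, are written 5′ to 3′ on the gene's own strand, and have in capitals AANATGGCG, the long form of the motif, in Med21 and Med27, the shorter AANATGGC in Med29 and Polr3e, and the core ATGGCG, read on either strand, in Med16, Med13, Med4 and Polr2l.
Med21 (chr6:146642598-146642627): gtgcgtggtgAACATGGCGgatagactcac
Med27 (chr2:29346830-29346859): tgtgacagctgcAACATGGCGgacgtgctg
Med29 (chr7:28392648-28392677): tctagcggaggAAAATGGCtgcgccccagc
Polr3e (chr7:120917798-120917827): gtttctccagcaggAACATGGCcgctgcct
Med16 (chr10:79908889-79908918): agggggccggcgcgggcctagagATGGCGg
Med13 (chr11:86357556-86357585): gaggcggcggtaATGGCGgatggtgggttg
Med4 (chr14:73510049-73510078): gtcagcggggcgATGGCGgcttcttcaagt
Polr2l (chr7:141475109-141475138): cacgccagacgcCGCCATgatcatcccggt

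The 8 windows shown are those whose match began after the TSS, and windows with matches before it are not shown. Of the 11 core matches in member promoters 6 began after the TSS (54.5%), beside 39.5% of core matches in all promoters. For AANATGGC these were 4 of 7 (57.1%) beside 39.8%. Counting the first transcribed base as 1, the capitals began at base 30 in Med21, 33 in Med27, 25 in Med29 and 35 in Polr3e. They began at base 44 in Med16, 24 in Med13, 13 in Med4 and 28 in Polr2l, where the match lies on the opposite strand. In Med21, Med27, Med29, Med16 and Med4 the ATG of the match is an annotated start codon of the gene, and in Polr3e and Med13 it is not. Med29, Med16, Med13 and Polr2l lie on the minus strand of the chromosome and the other 4 genes on the plus strand.

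The long motif was found in 2 of the 52 member promoters (3.85%), beside 3.24% of all 19174 promoters of autosomal protein-coding genes and 7.54% of those of genes with a YY1 peak in all 4 libraries. The shorter AANATGGC was in 7 (13.5%), beside 6.41% of all promoters and 11.8% of those with a peak in all 4 libraries. The core ATGGCG was in 10 (19.2%), beside 11.1% and 20.2%. Every match to the long motif is also a match to both shorter ones, and both strands were searched throughout. The core matches that lie before the TSS were in Polr1b, Polr1c, Med20, Med6 and, as another copy, Med4, and those of AANATGGC were in Polr2i, Med25 and Med31.

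In the central 300 bases of the widest peak region of 44 matched members the long motif was in 4 (9.09%), beside 4.54% of 9840 regions near autosomal coding starts, and in the whole regions it was in 10 (22.7%) beside 13.5%. The sets are not alike. The member regions are 1 per gene and each covers a TSS. The 9840 are all regions called in at least 2 libraries within 3 kb of such a start. Whole regions also differ in length, which was not matched, so these shares do not show an enrichment at the members.

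Motifs of other factors were searched in the same windows. The letters GCGCNTGCG, a form of the site of nuclear respiratory factor 1 (NRF1), which controls genes of mitochondria and other housekeeping genes, were in 14 of the 52 promoters (26.9%), beside 9.06% of all promoters and 15.8% of those of genes with a peak in all 4 libraries. CCGGAAGT, a site of ETS family factors, was in 9 (17.3%), beside 5.45% and 9.84%. GGGCGGG, the Sp1 site, was in 21 (40.4%), beside 35.4% and 48.7%. CCAAT was in 18 (34.6%) beside 37.5% and TATAAA in 5 (9.62%) beside 12.1% of all promoters. Matches to different motifs were counted separately and may overlap. Where windows of a gene overlap, as at Med15 and Med7, a single site was counted in each. By gene the counts were 13 for the NRF1 site, 8 for the ETS site, 20 for the Sp1 site and 17 for CCAAT. A match is a description of the letters and not evidence of binding, and a promoter without one says nothing of the factor.

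**Figure D1:**
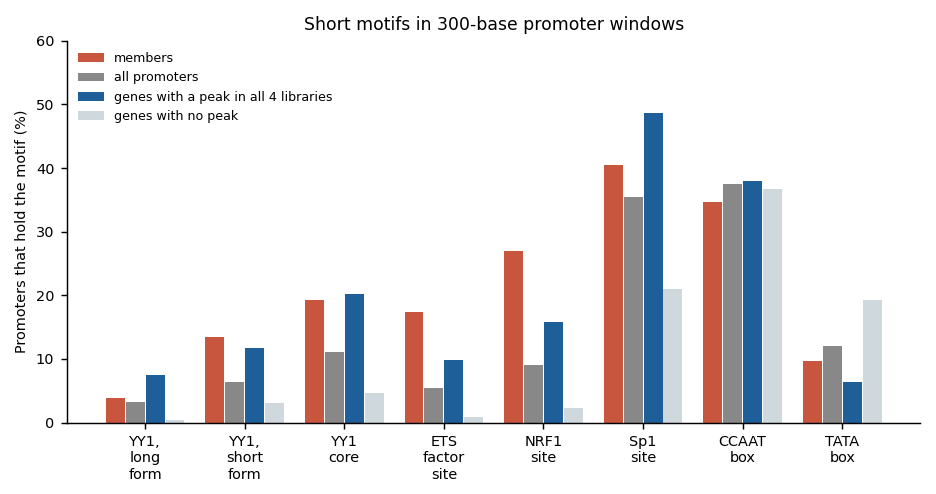
Bars give the percent of 300-base promoter windows that hold each motif on either strand, for the 52 promoters of the members, for all 19174 promoters of autosomal protein-coding genes, for promoters of genes with a YY1 peak in all 4 libraries and for those of genes with no peak. The members' bar is above the bar of all promoters by most for the NRF1 site (26.9% beside 9.06%) and close to it for the long YY1 motif (3.85% beside 3.24%).

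Member promoters had a median GC content of 57.8%, beside 57.3% over all promoters, 62.0% in genes with a peak in all 4 libraries and 51.3% in genes with none. Their median ratio of observed to expected CpG was 0.791, which lay near the 0.812 of genes with a peak in all 4 libraries and above the 0.601 of all promoters.

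YY1 peaks were found at nearly all of these genes. A peak lay within 3 kb of a TSS of 45 of the 56 members in WT 1 (80.4%; 40.8% of all autosomal protein-coding genes), 54 in WT 2 (96.4%; 49.0%), 47 in XistΔ/Δ 1 (83.9%; 40.7%) and 54 in XistΔ/Δ 2 (96.4%; 50.3%). In all 4 libraries 43 members had a peak (76.8%), beside 37.1% of all genes. Only Polr2f and Med12l had none in any library (3.57%), beside 48.3% of all genes. Members have more annotated starts than other genes, with a median of 5 beside 3, and a head-to-head coding neighbour within 1 kb is more common among them, at 30.4% beside 11.3%. Among genes with no such neighbour 28 of 39 members (71.8%) and 31.9% of all genes had a peak in all 4 libraries. Among genes with a neighbour these were 15 of 17 members (88.2%) and 77.3% of all genes. The part of the neighbours and of the number of starts in the counts was not tested. A peak covered a TSS in all 4 libraries for 42 members (75%), beside 33.8% of all genes.

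The other genes of the transcription machinery, listed by role, gave a share close to that of the members. Of 65 such genes 51 had a peak in all 4 libraries (78.5%). All 12 pausing and elongation factors of Pol II did, as did 23 of 29 general factors of Pol II. So did 8 of 12 genes of Pol III and 5 of 9 of Pol I, lists of factors that also hold subunits under other symbols. Among those subunits Crcp of Pol III and Cd3eap of Pol I lacked a peak in some library. Cdk8, Cdk19 and Ccnc, the kinases and the cyclin of the Mediator kinase module, had a peak in every library. Taf1b, part of the Pol I selectivity factor, was the only one of the 65 with no peak in any library.

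**Figure D2:**
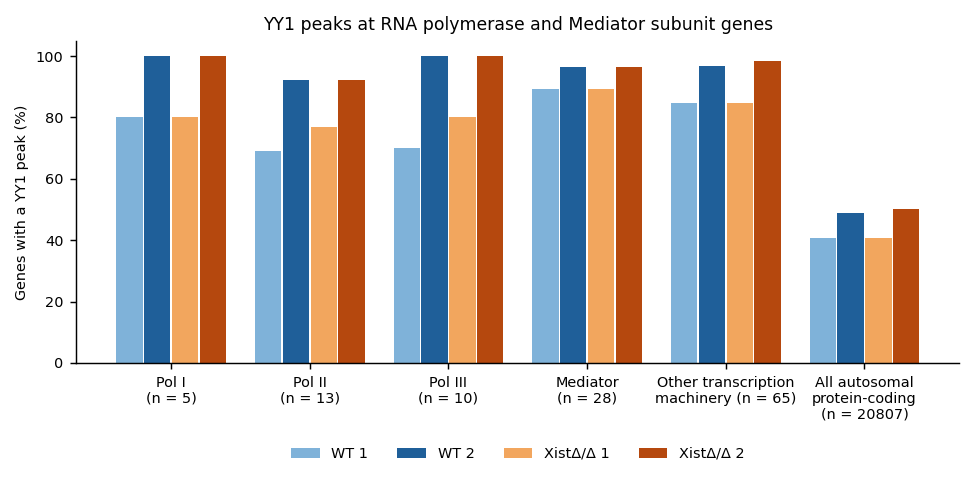
Bars give the percent of genes with a YY1 peak within 3 kb of a TSS in each of the 4 libraries, for the 4 member classes, the 65 other transcription machinery genes and all 20807 autosomal protein-coding genes, with the number of genes under each name. In every class the bars of the replicate 2 libraries are the tallest, and every member class stands above the 40.7% to 50.3% of all genes.

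The peaks sat on the starts themselves. The 54 members with a peak had 66 merged regions within the 3 kb limit. For each gene 1 region was taken as its widest, and it covered a TSS in 54 of 54 genes. At 2 genes another region was wider after merging, with 2276 bp beside 2229 bp at Med25 and 891 bp beside 843 bp at Polr3gl. The centre of the region taken lay a median of 87 bp from the nearest TSS, within 250 bp in 46 genes and within 500 bp in all 54. It ranged from 484 bp before the TSS (Polr3c) to 446 bp after it (Med27). The centre was after the TSS in 28 genes and before it in 26. By the annotation it fell in a UTR of the gene in 16 cases, before the gene in 15, in a coding exon in 11, in an intron in 9 and in a non-coding exon in 3. No region was shared by 2 members.

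For 5 genes the centre was nearer to the TSS of a coding neighbour. The region of Polr1a (chr6:71907685-71909777) was centred 13 bp from a start of Ptcd3 and 322 bp before that of Polr1a. The region of Med22 (chr2:26910044-26911512) was centred 14 bp from a start of Rpl7a, a ribosomal protein gene, and 101 bp before Med22. Med19, Med20 and Polr3c were the others, with Gm28635, Bysl and Rnf115 as neighbours. At such paired promoters the peak cannot be assigned to either gene.

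**Figure D3:**
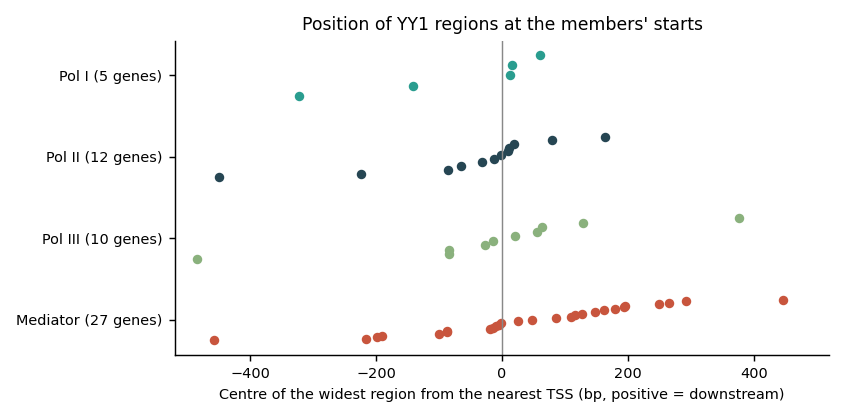
Each point is the centre of the YY1 region taken as widest for 1 member. It is given as distance in bp from the nearest TSS of that gene, with positive values downstream. Rows are classes, with the number of genes. All 54 points lie between -484 and 446 bp, and 46 lie within 250 bp of the TSS.

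A further region near a TSS was seen at 10 of the 54 genes, among them Polr1a, Polr2l, Polr3b, Polr3c, Polr3gl, Med4, Med7, Med24 and Med25. Most of these further regions were called in 1 or 2 libraries with widths of 501 to 972 bp. The exception was at Med25, whose product is a target of several activators. There a region of 2276 bp (chr7:44894725-44897000), called in all 4 libraries, was centred 216 bp from a start of Fuz and 3150 bp before that of Med25. Its edge was within 3 kb, and in XistΔ/Δ 2 it supplied the widest peak counted for Med25 (2213 bp), wider than the 1930 bp over the start of Med25 itself.

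The width of the peaks ranged widely between members. Over the 43 members with a peak in all 4 libraries the median of the mean percentile was 71.8, beside 73.6 over the 7709 genes with a peak in all 4. Median widths were 990 bp (WT 1), 1313 bp (WT 2), 907 bp (XistΔ/Δ 1) and 1339 bp (XistΔ/Δ 2), beside 1062, 1514, 933 and 1482 bp over those 7709 genes. The members were thus found more often than other genes, but their peaks were no wider than those of other genes with peaks. Polr1d, Med13 and Med25 had a percentile over 90 in every library, which is 5.36% of members beside 4.09% of all genes. Med25 did so only through the region near Fuz, and with peaks within 1 kb of a TSS, a distance added for this count after the values were seen, it stood at 86.3 in XistΔ/Δ 2 and 2 members were left (3.57%), beside 3.94% of all genes.

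**Figure D4:**
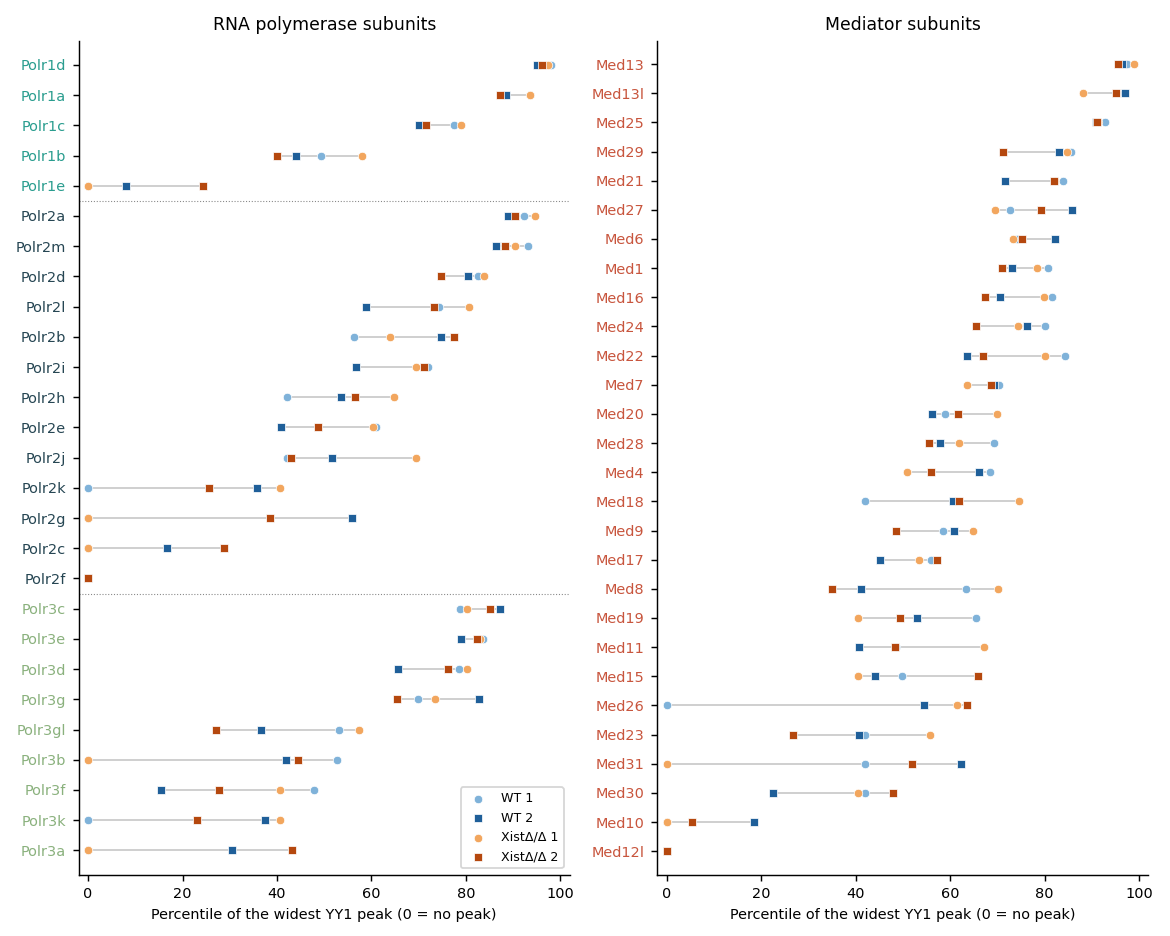
Each row is 1 of 55 members and each symbol the percentile of its widest YY1 peak in 1 library, with 0 for no peak, and gene names are coloured by class and ordered by mean percentile within the class. Polr1d and Med13 lead with every symbol at 95.1 or above, and Polr2f and Med12l stand at 0 in all 4 libraries.

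Pol I genes included the widest peaks among the polymerases. Polr1d, which encodes a subunit shared by Pol I and Pol III, had peaks of 2506 bp (WT 1), 2684 bp (WT 2), 1970 bp (XistΔ/Δ 1) and 2770 bp (XistΔ/Δ 2), with a mean percentile of 96.6. Polr1a, the largest subunit of Pol I and part of its active centre, had peaks of 1834, 2076, 1555 and 1979 bp in the same order and a mean percentile of 90.7. The other large subunit of the active centre, Polr1b, stood lower, with 628, 920, 660 and 903 bp and a mean percentile of 47.8. Polr1c, the partner of Polr1d in the assembly of both enzymes, had a mean percentile of 74.5. Polr1e, a Pol I subunit that pairs with the product of Cd3eap, had no peak in either replicate 1 library and peaks of 501 bp (WT 2) and 760 bp (XistΔ/Δ 2). In all, 4 of the 5 Pol I genes had a peak in all 4 libraries, with a median of 82.6 for the mean percentile.

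Among Pol II genes Polr2a, which encodes the largest subunit and its C-terminal domain, had the highest mean percentile. Its peak measured 1729 bp (WT 1), 2101 bp (WT 2), 1657 bp (XistΔ/Δ 1) and 2169 bp (XistΔ/Δ 2), with a mean percentile of 91.6. Its promoter was among the 5 with TATAAA, which began 33 bases before the TSS. Polr2b, the other large subunit of the active centre, had 714, 1526, 770 and 1596 bp and a mean percentile of 68.1. In both genes each XistΔ/Δ percentile was above the WT percentile of the same replicate number, while the 2 genotypes overlapped. Polr2m, whose product binds Pol II and limits its response to initiation factors, followed Polr2a with a mean percentile of 89.6, and in WT 1 its peak of 1803 bp was the wider of the 2. Polr2l, a small subunit common to all 3 polymerases, had 1042, 1170, 1055 and 1474 bp in the order used above.

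The lowest Pol II genes were missing from some lists. Polr2f (chr15:79141009-79151774), which encodes a small subunit common to all 3 polymerases, had no peak in any library, although its promoter has a GC content of 63.7% and holds CCGGAAGT from base -17, shown here with the match in capitals:
Polr2f (chr15:79141297-79141326): gccgctgcttcCCGGAAGTaactgcgcctg
Polr2c, an assembly subunit, had peaks only in WT 2 (629 bp) and XistΔ/Δ 2 (773 bp). Polr2g, a subunit of the stalk that contacts emerging RNA, likewise had peaks only in WT 2 (1113 bp) and XistΔ/Δ 2 (896 bp). Polr2k, another common subunit, lacked a peak only in WT 1 and had 804 bp (WT 2), 501 bp (XistΔ/Δ 1) and 763 bp (XistΔ/Δ 2). Of the 13 Pol II genes 9 had a peak in all 4 libraries, with a median mean percentile of 68.1. When the 7 subunits shared between polymerases were taken as a class of their own, 5 of 7 had a peak in all 4 libraries, and 2 of 3 Pol I, 6 of 8 Pol II and 6 of 10 Pol III genes were left with one.

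Pol III genes had the lowest share of members with a peak in every library, 6 of 10, and a median mean percentile of 74.0 among those 6. Polr3a and Polr3b, the large subunits of the active centre, were both incomplete. Polr3a had peaks only in WT 2 (769 bp) and XistΔ/Δ 2 (926 bp), and its start lies 67 bp from that of Rps24, a ribosomal protein gene on the opposite strand. Polr3b had 642 bp (WT 1), 902 bp (WT 2) and 946 bp (XistΔ/Δ 2) and none in XistΔ/Δ 1. Polr3c, part of the trimer that opens DNA at initiation, was highest, with 1164, 2000, 1048 and 1870 bp and a mean percentile of 82.8. Polr3g and Polr3gl encode alternative forms of another subunit of that trimer, and Polr3g, the form linked to stem cells, had mean percentile 72.8 beside 43.6 for Polr3gl. The peaks of Polr3gl measured 645 bp (WT 1), 818 bp (WT 2), 653 bp (XistΔ/Δ 1) and 767 bp (XistΔ/Δ 2). Polr3k, which takes part in RNA cleavage and termination, lacked a peak in WT 1 and had 840 bp (WT 2), 501 bp (XistΔ/Δ 1) and 757 bp (XistΔ/Δ 2).

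Of the 28 Mediator genes 24 had a peak in all 4 libraries, with a median mean percentile of 64.8, and the share varied by module. All 7 head genes, all 5 tail genes and all 4 of Med27, Med28, Med29 and Med30, which are placed in the tail or head in different accounts, had a peak in every library. Med24 of the tail had 1190 bp (WT 1), 1573 bp (WT 2), 919 bp (XistΔ/Δ 1) and 1309 bp (XistΔ/Δ 2). Med25, counted with the region near Fuz, had 1777, 2229, 1414 and 2213 bp in the same order. Med27, whose promoter holds the long YY1 motif, had 1013, 1937, 830 and 1657 bp. All 3 were thus wider than the commonest width in every library.

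In the middle module 6 of 9 genes had a peak in every library. Med21, the other gene whose promoter holds the long motif, had 1313 bp (WT 1), 1447 bp (WT 2), 1091 bp (XistΔ/Δ 1) and 1750 bp (XistΔ/Δ 2). Med7, its partner in the hinge of the module, had 939, 1386, 768 and 1368 bp. The incomplete genes of the middle were Med10, Med26 and Med31. Med10 had peaks only in WT 2 (633 bp) and XistΔ/Δ 2 (501 bp). Med26, a subunit that binds elongation factors, lacked a peak in WT 1 and had 1077 bp (WT 2), 759 bp (XistΔ/Δ 1) and 1281 bp (XistΔ/Δ 2). Med31, a highly conserved subunit, lacked a peak in XistΔ/Δ 1 and had 501 bp (WT 1), 1229 bp (WT 2) and 1055 bp (XistΔ/Δ 2).

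The kinase module held both ends of the range. Med13, which joins the module to the core complex, had the widest peaks of all members by mean percentile (97.1), with 2362 bp (WT 1), 2936 bp (WT 2), 2351 bp (XistΔ/Δ 1) and 2701 bp (XistΔ/Δ 2). Its paralog Med13l followed with 2239, 3047, 1287 and 2616 bp and a mean percentile of 94.3. Med12l (chr3:59005825-59318682), the paralog of the X-linked Med12, had no peak in any library, although its promoter has a GC content of 69%. Med12 itself had peaks of 1067, 1310, 766 and 1169 bp in the same order. Med1, the middle subunit through which nuclear receptors contact Mediator, had 1206, 1478, 1026 and 1427 bp and a mean percentile of 75.9.

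The comparison of genotypes asks whether YY1 at these genes changed when Xist was deleted. In WT 49.5 ± 6.36 members (SD, n = 2) had a peak, and in XistΔ/Δ 50.5 ± 4.95 members (SD, n = 2) did. The difference of 1 gene was smaller than the spread between replicates, with p = 1 in a two-sided exact permutation test over the 4 libraries, whose smallest possible p is 0.333. Within replicate numbers the difference was 2 genes in replicate 1 and 0 in replicate 2. The median percentile over the 43 members with a peak in all 4 libraries was 72 (WT 1), 66.1 (WT 2), 73.3 (XistΔ/Δ 1) and 67.4 (XistΔ/Δ 2). The WT mean was 69 ± 4.19 (SD, n = 2) and the XistΔ/Δ mean 70.3 ± 4.13 (SD, n = 2), a difference of 1.31 with p = 0.667 in the same exact test. That sign turned when order in the list or width in bp was used in place of the width percentile. With 2 libraries per genotype no difference could pass 0.05, so these values do not show that the genotypes are alike.

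Presence of a peak divided some members by replicate number and none by genotype. Of the 56 members 0 were called in XistΔ/Δ alone, with peaks in its pair of libraries and none in WT, beside 0.207% of all genes, and 0 were called in WT alone, beside 0.0721%. Shares this small leave little room for a call among 56 genes. By replicate number 5 members, Polr1e, Polr2c, Polr2g, Polr3a and Med10, had peaks in both replicate 2 libraries and neither replicate 1 library (8.93%), beside 4.30% of all genes. All genes include the 48.3% with no peak in any library, beside 3.57% of members. Among genes with any peak, the pattern held for 5 of 54 members and 894 of 10750 genes. The replicate 2 libraries were also the deeper ones, and the part of depth in these calls was not tested. Polr2k, Polr3k and Med26 were missing only from WT 1 and Med31 and Polr3b only from XistΔ/Δ 1, which are the 2 lists with the fewest peaks.

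Within both replicate numbers the percentile was higher in XistΔ/Δ for 11 members (19.6%; 10.9% of all genes) and lower for 12 (21.4%; 11.6% of all genes). Among genes with a peak in all 4 libraries the shares of members were 9 of 43 higher (20.9%) and 11 of 43 lower (25.6%), close to the 24.0% and 26.5% of all such genes. The members as a whole thus gave no count above that of genes with peaks. Both XistΔ/Δ percentiles were above both WT percentiles in 5 members, among them Polr2h, Med18, Med20 and Med26 (8.93%; 5.87% of all genes), and below both in another 5, Med4, Med7, Med13l, Med19 and Med24 (8.93%; 6.78% of all genes). Genes with no peak in any library can be in neither group. Of the 10750 genes with any peak, 1222 were above and 1410 below, beside 5 and 5 of 54 members. These counts thus show no excess among the members.

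By class 7 of 28 polymerase genes were higher (25%) and 0 lower, beside the 10.9% and 11.6% of all genes. Of 28 Mediator genes 4 were higher (14.3%) and 12 lower (42.9%). Among those with a peak in all 4 libraries, 6 of 19 polymerase genes were higher (31.6%) and 0 lower. There 3 of 24 Mediator genes were higher (12.5%) and 11 lower (45.8%), beside 24.0% and 26.5% of all such genes. This split rested on the width scale and on the pairing of replicate numbers. By order in the list 7 polymerase genes were higher and 4 lower, and 8 Mediator genes higher and 7 lower. On that scale 11.5% of all genes were higher and 12.1% lower. On the width scale with the replicate numbers crossed, a setting added after the values were seen, 5 polymerase genes were higher and 2 lower, and 5 Mediator genes higher and 5 lower. Of all genes 8.98% were higher and 9.88% lower when crossed, and low percentiles do not compare between replicate numbers. The higher polymerase genes included Polr1c, Polr2a, Polr2b, Polr2h, Polr2l and Polr3d. The higher Mediator genes were Med11, Med18 and Med20 of the head and Med26 of the middle. The lower genes were Med1, Med4, Med7, Med19 and Med31 of the middle, Med6 of the head, Med16 and Med24 of the tail, Med27, Med28 and Med29, and Med13l of the kinase module. Of the 11 higher genes 8 and of the 12 lower genes 7 kept their direction by list order, and 1 lower gene, Med29, turned. No test of the difference between the classes was made, since genes are not replicates of the libraries.

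Apart from that of Med4, the large mean differences given here came from genes that were missing in 1 list or had the commonest width in 1. Med26 had percentiles of 0 (WT 1), 54.5 (WT 2), 61.5 (XistΔ/Δ 1) and 63.5 (XistΔ/Δ 2), a mean difference of 35.2 percentile points within replicate numbers. Med18, which forms the movable part of the head with Med20, had 42.1, 60.7, 74.5 and 61.9 in the same order, and its mean difference of 16.8 was made up of 32.4 points in replicate 1, where its WT peak had the commonest width, and 1.26 in replicate 2.

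In the other direction Med31 had 42.1 (WT 1), 62.3 (WT 2), 0 (XistΔ/Δ 1) and 52 (XistΔ/Δ 2), a mean difference of -26.2. Med19 had 65.6, 52.9, 40.6 and 49.4 in the same order, a mean difference of -14.3. Med4 had 68.4, 66.1, 50.9 and 56, a mean difference of -13.8. Its peaks, of 912 and 1313 bp in the WT libraries and 628 and 1144 bp in those of XistΔ/Δ, were wider than 501 bp in every library, but it did not keep its lower rank in both replicates by order in the list, and nor did Med31. Polr3b showed how much a single missing peak weighs, with a difference of -52.8 in replicate 1 and 2.67 in replicate 2.

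**Figure D5:**
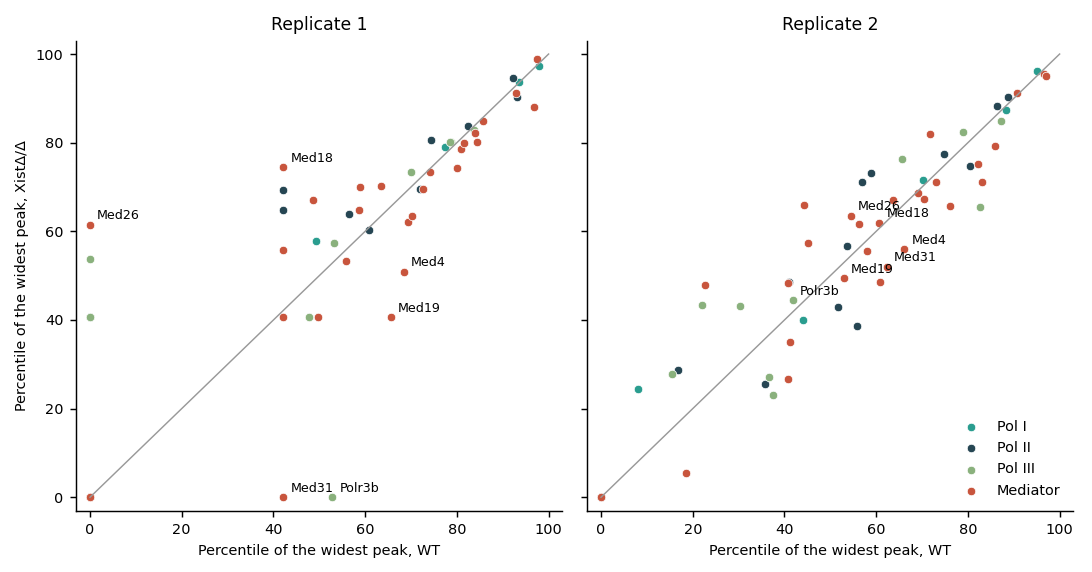
Each point is 1 member, with the percentile of its widest peak in WT on the horizontal axis and in XistΔ/Δ on the vertical axis, for replicate 1 on the left and replicate 2 on the right, and the line marks equal values. Med26 lies at 0 in WT replicate 1 and Med31 and Polr3b at 0 in XistΔ/Δ replicate 1, while in replicate 2 all 3 had a peak in both genotypes.

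For contrast, the X-linked Mediator genes differed in opposite directions. Med14, the scaffold of the core complex, had peaks of 1514 bp (WT 1), 1924 bp (WT 2), 1761 bp (XistΔ/Δ 1) and 2316 bp (XistΔ/Δ 2), with XistΔ/Δ percentiles above the WT percentiles by 7.14 and 6.72 points within replicates 1 and 2. In Med12 the differences were -12.7 and -7.6 points. In neither gene did the genotypes overlap in percentile, and with 2 libraries each the smallest possible exact p is 0.333.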

How the data were processed

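Trimming, alignment to mm10 and peak calling were done by the authors, whose processing notes name Trim Galore, Bowtie2 2.3.5.1, SAMtools 1.10, Picard 2.0.1, deepTools 3.5.0, HOMER 4.9.1 and DiffBind 3.0.13. Per the file headers, HOMER peaks of 500 bp were called in each YY1 library on its own, at a false discovery rate of 0.001 and 4-fold over the local region, and stitched into regions of variable width. The deposited score column holds 1 in every row and carries no strength. The other deposited values used are peak positions.

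Members and lists were chosen with earlier results of these data known. Genes and starts were taken from GENCODE M21. Peaks sharing at least 1 bp were merged over the 4 lists into 19768 regions. A gene had a peak when the edge of a peak lay within 3 kb of any of its starts. A percentile was the rank of a width among 14168 regions called in at least 2 libraries, with ties sharing their mean and 0 for no peak. Libraries were the replicates in exact permutation tests. Genes named with values in every library were those without a peak in at least 1 library, the highest and lowest by mean percentile in each class, the catalytic subunits, Med1 and the kinase module genes, the 3 largest mean differences in each direction, genes with 2 or more regions, and genes whose promoter holds AANATGGCG. Results of 1 member are not reported here by name, although it is counted. Other genes named were chosen after their values were seen. Promoter sequences are RefSeq's for GRCm38.p6, and 52 of 52 member promoters were identical to the genome sequence at their coordinates. The computations used Python 3.11.15, pandas 2.3.3, NumPy 2.4.6 and pysam 0.24.0 and were tested on simulated peaks. Total tags were 23.1 to 59.5 M per library, with no read counts per peak, so no counting error could be given. Alternatives were other distances, starts, list lengths, scales and motifs, and leaving out each library.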

Additional observations from a re-analysis of the deposited data

How the results depend on the processing

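The count of members with a peak in all 4 libraries was 43, beside 37.1% of all genes. It fell to 35, beside 31.6% of all genes, when only peaks wider than the commonest width were used. Without WT replicate 1, 47 members had a peak in every library left, a looser rule, beside 40.3% of all genes. The difference in the number of members with a peak (1) became 1.5 with lists of equal length and ranged from -3.5 to 5.5 when a library was left out, turning sign without WT replicate 1 (-3.5) or, less far, without XistΔ/Δ replicate 2 (-2.5). The difference in median percentile (1.31) was -0.858 by order in the list and -28.5 bp as a width, and ranged from -1.66 to 4.35 with a library left out, turning sign without WT replicate 2 (-1.66) or, less far, without XistΔ/Δ replicate 1 (-1.02). With the replicate block the differences were 1 (exact p = 1) and 1.31 (exact p = 0.5, the smallest possible), and the libraries of a replicate number share that label and a number of unknown meaning in the file headers, with a correlation of 0.298 over 7709 genes between the replicate differences of the genotypes. Of the 56 members, genotype-specific ones went from 0 to 1 (XistΔ/Δ) with lists of equal length, beside 0.437% of all genes. Without WT replicate 2 there were 4 XistΔ/Δ-specific members (0 to 4 over the libraries left out), beside 3.43% of all genes. Without XistΔ/Δ replicate 2 there were 2 WT-specific members (0 to 2), beside 3.33% of all genes. With all 4 libraries the shares of all genes were 0.207% (XistΔ/Δ-specific) and 0.0721% (WT-specific). By order in the list the Mediator genes were 8 higher and 7 lower and the polymerase genes 4 lower, beside 11.5% higher and 12.1% lower of all genes. Crossing the replicate numbers, an alternative chosen after seeing the data, gave 10 higher and 7 lower members, beside 8.98% and 9.88% of all genes. Among these were 5 higher and 5 lower Mediator genes and 5 higher and 2 lower polymerase genes. Taking shared subunits apart left 2 Pol I genes with a peak in all 4 libraries. The motif count of 2 genes became 7 with AANATGGC, 10 with ATGGCG and 10 with the long motif searched in whole merged regions. The last is 22.7% of the 44 member regions beside 13.5% of all regions near coding starts, a set not limited to 1 region per gene and not matched in length. The other 65 recomputed values kept their direction or stayed within 1.5 times the reported count. The replicate 1 lists are shorter and from shallower libraries, and the causes of these changes were not tested.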
